A study of Mus musculus with 32 samples.

Results

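This section describes the RJ2 DMC1 sites that carried none of the other marks mapped in the same strain. They were chosen by the overlap of peak lists, as the intervals of the RJ2 DMC1 list whose central 400 bp overlapped, by 1 bp or more, no interval of the RJ2 PRDM9, RJ2-specific H3K4me3 or common H3K4me3 lists. Of the 15195 RJ2 DMC1 sites, 2207 met this rule (14.5%, 95% Clopper-Pearson interval 13.97 to 15.09%), and they are called unmarked sites below. The other 12988 sites are called marked sites. Of these, 6826 overlapped an RJ2 PRDM9 peak, 5912 had RJ2-specific H3K4me3 without a PRDM9 peak, and 250 had only H3K4me3 that was common to both strains. Because these 3 lists chose the unmarked sites, the absence of a mark is not a finding, and nothing below tests it.

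RJ2 mice (strain B10.MOLSGR(A)-(D17Mit58-D17Jcs11)/Bdm) have the background of C57BL/10 with a segment of chromosome 17 of other origin, and they express the *Prdm9* allele called *Cst*. B6 mice (C57BL/6JOlaHsd) express the allele *Dom2*. DMC1 was mapped in whole testis at 5 weeks after birth (2 libraries for RJ2 and 2 for B6), and PRDM9 in whole testis at 13 days after birth (2 ChIP libraries for each strain, from testes of pooled mice). H3K4me3 was mapped in pachytene cells of adults that were enriched by elutriation (1 ChIP library for each strain). The age and the cells therefore differed between DMC1 and both kinds of marks, and the part of this difference in the absence of a mark was not tested. The other PRDM9 lists came from mice that lack PRDM9 (B6;129P2-*Prdm9*tm1Ymat/J, 1 library) or the break-forming protein SPO11 (*Spo11*tm1M, 2 libraries), both at 13 days. The mice without SPO11 carry the allele *Dom2*. The authors pooled replicates before depositing 1 list of positions for each experiment. The paper gives the number of mapped reads of each library, but the lists hold no read count and no score for a site. The signal at a site is therefore unknown here, and the part of read depth in the absence of a mark was not tested. Every interval given below covers the counting of sites and not the spread between mice.

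In mammalian meiosis, PRDM9 binds DNA through an array of zinc fingers that differs between alleles, and trimethylates histone H3 on lysine 4 in the nucleosomes beside its site. SPO11 then cuts the DNA near the bound site, and DMC1, a meiotic strand-exchange protein, coats the single-stranded DNA at the resected ends. A DMC1 site thus marks a place where a double-strand break formed or persisted, and the PRDM9 and H3K4me3 lists show whether the earlier steps were seen at the same place. In males most of the X chromosome has no homolog to pair with, except in the pseudoautosomal region at its distal end, where X and Y must recombine.

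Sequences of unmarked sites are shown first, because the results below turn on whether they hold a PRDM9Cst motif. The motif was learned as a position weight matrix of 20 bp on the RJ2 PRDM9 peaks at RJ2 DMC1 centres, with odd-numbered chromosomes used to score the others and the reverse, so that no site was scored by a matrix learned on its own chromosome. Both matrices gave the same consensus AAAAGNCACAGNCCAAGNCA, where N marks a position with no base in at least 50% of the aligned sites. The following stretches of 40 bp are from mm9, 5′ to 3′ in the orientation of the matrix, with the match in capitals. They come from the unmarked site with the highest score (chromosome 8, 119304787 to 119304826, plus strand, intergenic), from the widest unmarked site that had a match (chromosome 5, 6262878 to 6262917, minus strand, intergenic), from the first site in the list that had a match (chromosome 1, 6105031 to 6105070, minus strand, intergenic) and from an intron of *Prdm9* itself (chromosome 17, 15689955 to 15689994, minus strand).
Highest score: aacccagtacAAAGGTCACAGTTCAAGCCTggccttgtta
Widest with a match: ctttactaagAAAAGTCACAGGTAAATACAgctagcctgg
First listed with a match: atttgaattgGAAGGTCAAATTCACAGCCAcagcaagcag
Prdm9 intron: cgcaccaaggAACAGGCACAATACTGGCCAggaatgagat

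Their scores, as sums of log2 odds over the 20 positions, were 23.4, 18.4, 20.3 and 13.2, against thresholds of 11.97 and 12.03 for the 2 matrices. A threshold was set so that 5% of 400-bp windows centred 4.5 kb from the training peaks held a match. The matches were offset from the centre of their DMC1 interval by -26, -114, 112 and 181 bp, where a negative value is towards lower coordinates. RJ2 carries sequence of another origin around *Prdm9*, so that last sequence is that of the reference and may differ in RJ2.

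PRDM9Cst motif matches were frequent in the unmarked sites. A match was found in the central 400 bp of 1149 of 2207 unmarked sites (52.1%, interval 49.95 to 54.16%), against 8659 of 12988 marked sites (66.7%, interval 65.9 to 67.5%) and 64.5% of all RJ2 DMC1 sites. In windows centred 4.5 kb from the unmarked sites, 212 of 4414 held a match (4.80%). The share at the centres thus exceeded that of the flanks of the same sites by 47.3 percentage points (95% Newcombe interval 45.1 to 49.4). This interval treats centres and flanks as independent and leaves out their pairing by site. Compared with marked sites, the share was lower by a difference of -14.6 points (interval -16.8 to -12.4). The sites are the units of these intervals, and some matches are copies of a repeated sequence, as described below.

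Among the marked sites, the share with a match differed by the kind of mark. It was 51.2% (128 of 250) at sites with common H3K4me3 only, 59.3% (3508 of 5912) at sites with RJ2-specific H3K4me3 and no PRDM9 peak, and 73.6% (5023 of 6826) at sites with a PRDM9 peak. The unmarked sites differed from the sites with RJ2-specific H3K4me3 by -7.28 points (interval -9.70 to -4.85) and from those with a PRDM9 peak by -21.5 points (interval -23.9 to -19.2). From sites with common H3K4me3 only, they differed by 0.86 points with an interval of -5.61 to 7.37, so a difference was not detectable with 250 sites. The matrices were learned on PRDM9 peaks at DMC1 centres of other chromosomes, and a higher share in that group is in part built into them.

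**Figure D1:**
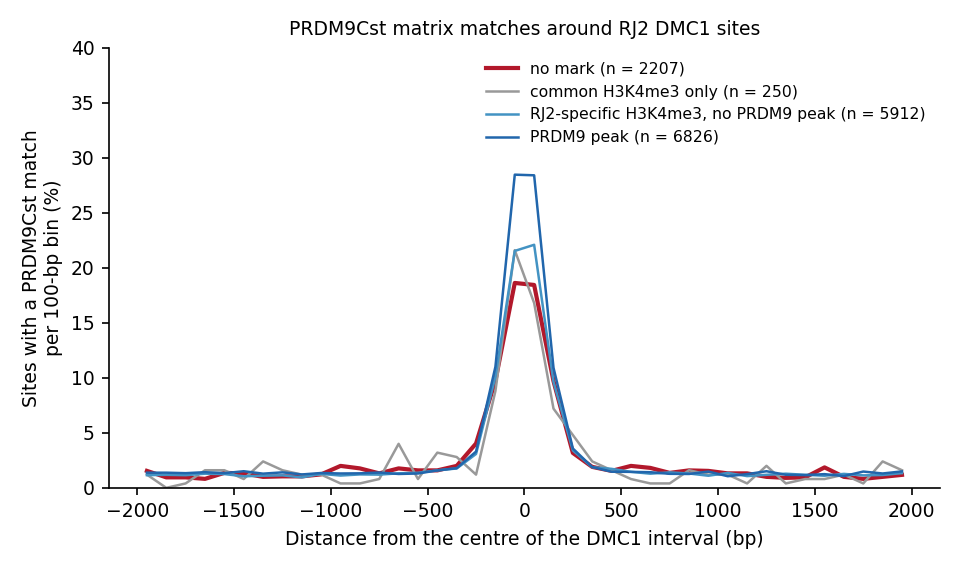
Share of RJ2 DMC1 sites with a PRDM9Cst match in each 100-bp bin (vertical axis, %) by distance from the centre of the DMC1 interval (horizontal axis, bp), for unmarked sites (thick red line) and the 3 groups of marked sites. The unmarked sites peak at 18.6% and 18.4% in the 2 central bins, against a median of 1.02% in bins more than 1 kb away, and sites with a PRDM9 peak reach 28.5%.

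The matches in unmarked sites were centred on the DMC1 interval, as in marked sites. In the plot of matches by distance, 18.6% and 18.4% of unmarked sites held a match in the central bins of 100 bp on either side of the centre, and the share was 9.74% and 9.70% in the next bin on either side. More than 1 kb from the centre, the median over bins was 1.02% (range 0.82 to 1.86%). The median distance from a match to the centre was 68 bp in unmarked sites and 62 bp in marked sites. Matches fell on the plus strand in 569 unmarked sites and on the minus strand in 580.

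The best score in the central 400 bp had a median of 12.2 in unmarked sites (interval 11.97 to 12.46) and 14.1 in marked sites (interval 13.99 to 14.20). At a stricter threshold, met by 1% of flanking windows, 562 unmarked sites (25.5%) and 5408 marked sites (41.6%) had a match, which is 39.3% of all RJ2 DMC1 sites. Among sites with a match at the main threshold, the median score was 14.9 in unmarked and 15.8 in marked sites. Thus the unmarked sites held fewer matches and, where they held one, a lower-scoring one, but the distributions overlapped over most of their range. The most enriched word of 8 bp in the PRDM9 peaks, AGGTCACA (searched on both strands and part of many matrix matches), was present in the central 400 bp of 124 unmarked sites (5.62%) and 1067 marked sites (8.22%), or 7.84% of all sites. It was present in 1.77% of windows beside the unmarked sites.

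**Figure D2:**
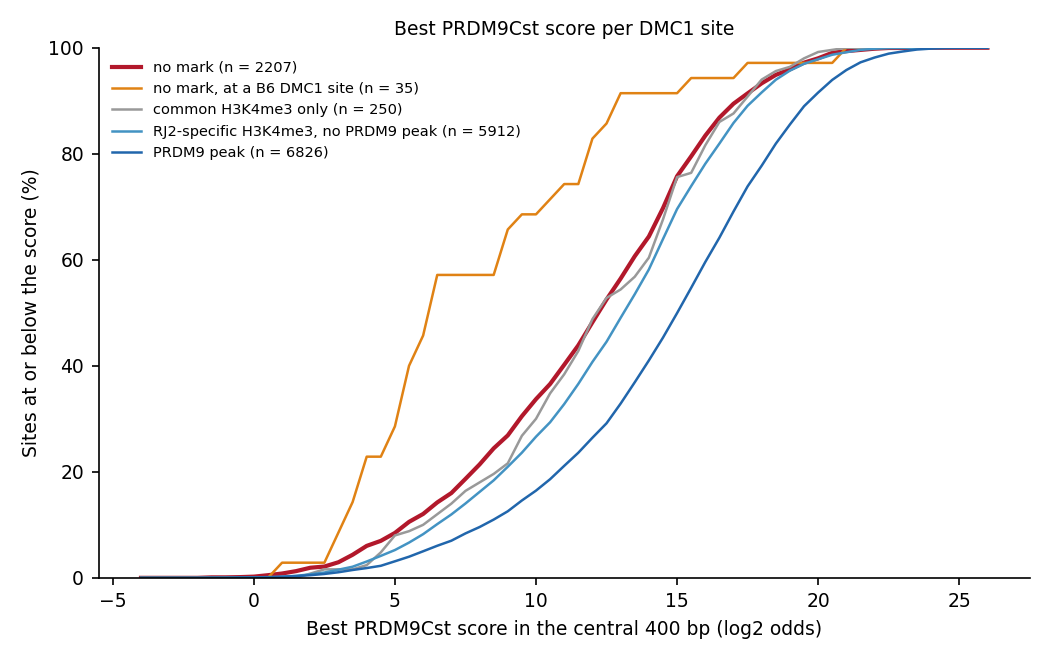
Cumulative share of sites (vertical axis, %) at or below each best PRDM9Cst score in the central 400 bp (horizontal axis, log2 odds), for unmarked sites, the 35 unmarked sites that are also B6 DMC1 sites, and 3 groups of marked sites. The curve of the unmarked sites lies near that of the sites with common H3K4me3 only, left of those with RJ2-specific H3K4me3 or a PRDM9 peak, and the 35 sites shared with B6 lie furthest left, with a median of 6.32.

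The motif of the other allele was not more frequent than in the surroundings. A matrix for PRDM9Dom2, learned in the same way on B6 peaks (24 bp, consensus ANNNNNNAAGNNGGCAGCANCNNC or AANNNNNAAGNNGGCAGCANCNNC in the 2 sets of chromosomes), matched 89 unmarked sites (4.03%, interval 3.25 to 4.94%). It matched 560 marked sites (4.31%), 4.27% of all sites, and 5.05% of windows 4.5 kb from the unmarked sites. The difference between unmarked and marked sites was -0.28 points (interval -1.11 to 0.69).

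A sequence repeated in the genome made up part of the matches. The 20-bp match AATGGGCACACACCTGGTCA was the match of 52 of the 2207 unmarked sites, on 16 chromosomes, and of 95 of the 12988 marked sites. Its share was thus higher in unmarked sites. It is shown here because it was the most frequent match among the unmarked sites, and was chosen after the values were seen. Its first occurrence in the list of unmarked sites lies on chromosome 1, 32829980 to 32830019, plus strand, intergenic.
Repeated match: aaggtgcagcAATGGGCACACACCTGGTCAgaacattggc

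Of these 52 sites, 49 had a centre in which less than 50% of the words of 36 bp occur at a single place in the genome, and the median of that share was 20%. In all, 80 unmarked sites (3.62%, interval 2.88 to 4.49%) and 208 marked sites (1.60%, interval 1.39 to 1.83%) were below this limit, or 1.9% of all sites. A match was found in 65 of these 80 unmarked sites (81.2%) and in 160 of the 208 marked sites (76.9%), so the share was high in repeated sites of both kinds. Without all sites below the limit, a match was found in 51.0% of 2127 unmarked and 66.5% of 12780 marked sites. DMC1 and PRDM9 reads had been kept where they mapped to a unique place, and the effect of this on the marks of such sites was not tested. The 1149 matches of unmarked sites had 1081 different sequences, and 76 sites shared theirs with another unmarked site.

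**Figure D3:**
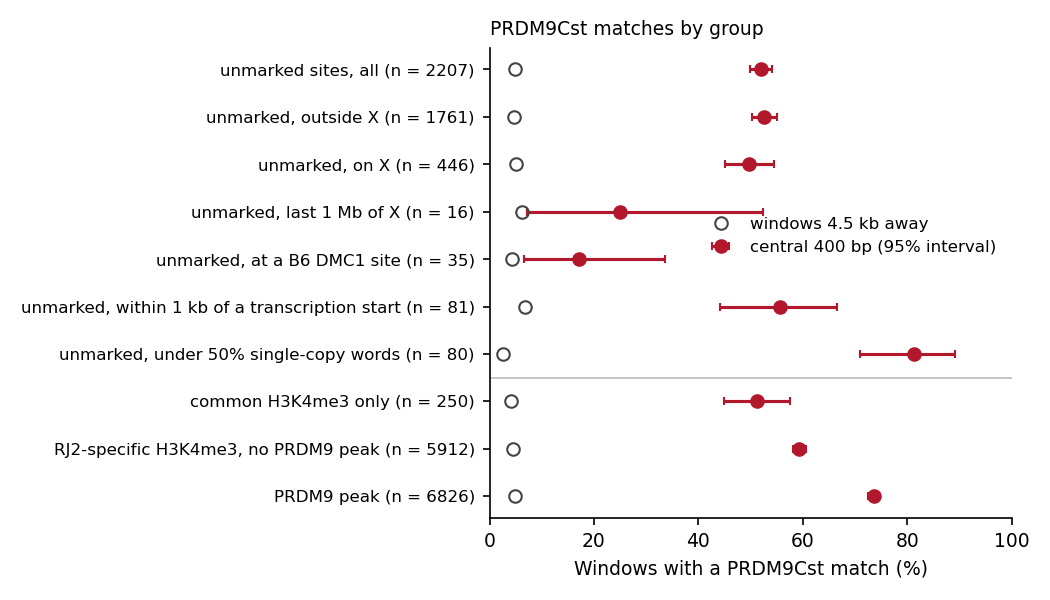
Share of windows with a PRDM9Cst match (horizontal axis, %) in the central 400 bp of each group of RJ2 DMC1 sites (filled points with 95% Clopper-Pearson intervals) and in windows 4.5 kb away (open points). Unmarked sites and their subsets are above the line, and the 3 groups of marked sites below it. The unmarked sites shared with B6 stand lowest at 17.1% and those with repeated sequence highest at 81.2%, where marked sites with repeated sequence, not drawn, had 76.9%.

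Unmarked sites were concentrated on the X chromosome. The X carried 446 of the 2207 unmarked sites (20.2%, interval 18.6 to 21.9%) and 467 of the 12988 marked sites (3.596%, interval 3.28 to 3.93%), a difference of 16.6 points (interval 14.96 to 18.37), where all sites had 6.01% on the X. Put the other way, 48.8% of the 913 DMC1 sites of the X were unmarked (interval 45.6 to 52.1%), against 12.3% of the 14273 autosomal sites (interval 11.8 to 12.9%). Among autosomes this share ranged from 8.36% on chromosome 2 to 17.7% on chromosome 4, with 16.95% on chromosome 3, 16.1% on chromosome 14 and 15.8% on chromosome 10. On the Y, 3 of 9 sites were unmarked.

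**Figure D4:**
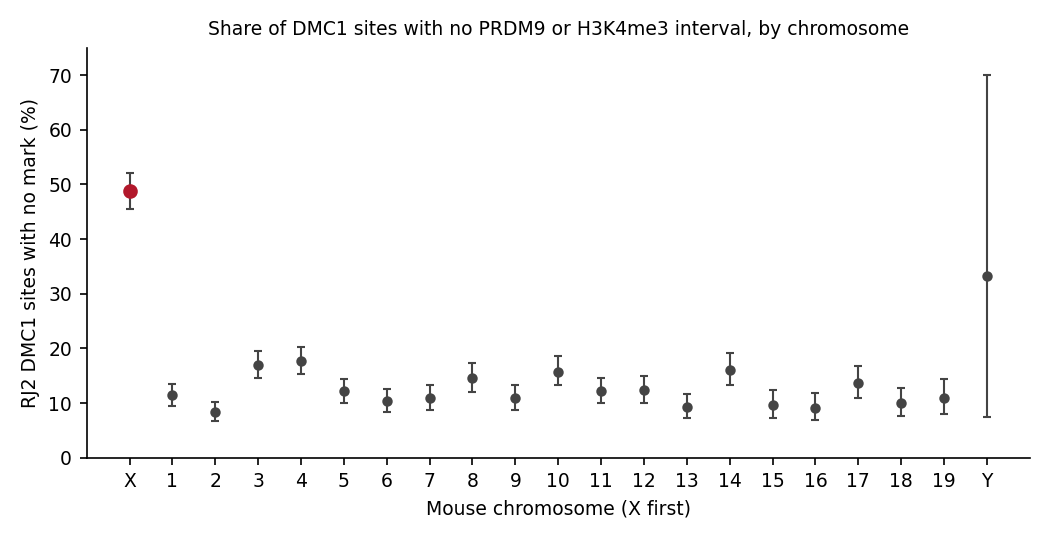
Share of RJ2 DMC1 sites with no mark (vertical axis, %) on each chromosome, X first (red), then 1 to 19 and Y, with 95% Clopper-Pearson intervals. The X stands at 48.8% and every autosome at or below 17.7%, and the interval of the Y, with 9 sites, is wide.

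The density of unmarked sites was 2.68 per Mb on the X, against 0.50 to 1.07 per Mb on autosomes. The density of marked sites was 2.80 per Mb on the X, against 4.29 to 6.15 per Mb on autosomes. In the B6 strain, where more DMC1 sites had no mark of their own strain's lists (8115 of 14774, 54.9%), the X was again above the rest, with 594 of 835 sites (71.1%), against 7521 of 13939 elsewhere (54.0%).

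A difference in motif content between unmarked sites of the X and those of other chromosomes was not detectable. A PRDM9Cst match was found in 222 of 446 unmarked sites of the X (49.8%) and in 927 of 1761 elsewhere (52.6%), a difference of -2.86 points with an interval of -8.03 to 2.31. On the X itself, marked sites had a match in 312 of 467 (66.8%). The difference of unmarked from marked sites was -17.03 points on the X (interval -23.2 to -10.7) and -14.02 points elsewhere (interval -16.5 to -11.6).

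Unmarked sites were narrower than marked ones. The width of the DMC1 interval, whose relation to the DMC1 signal was not tested since the list holds no signal, had a median of 1560 bp in unmarked sites (interval 1550 to 1574) and 1720 bp in marked sites (interval 1714 to 1726). By kind of mark, the median was 1658 bp with common H3K4me3 only, 1634 bp with RJ2-specific H3K4me3 and no PRDM9 peak, and 1794 bp with a PRDM9 peak. On the X, it was 1602 bp in unmarked and 1844 bp in marked sites. The widths of unmarked sites ranged from 958 to 4232 bp and overlapped those of marked sites (842 to 4512 bp).

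When all RJ2 DMC1 sites were split into 5 groups of equal number by width, the share without a mark fell with width, both on the X and on autosomes. On the X it was 82.1, 63.8, 50, 35.5 and 23.0% in the groups from narrow to wide. On autosomes it was 25.3, 13.6, 8.90, 6.76 and 6.81%. In each group the interval of the X lay above that of the autosomes, also in the widest (17.8 to 29.03% on the X, against 5.90 to 7.81% on autosomes). The excess on the X was therefore present at every width.

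**Figure D5:**
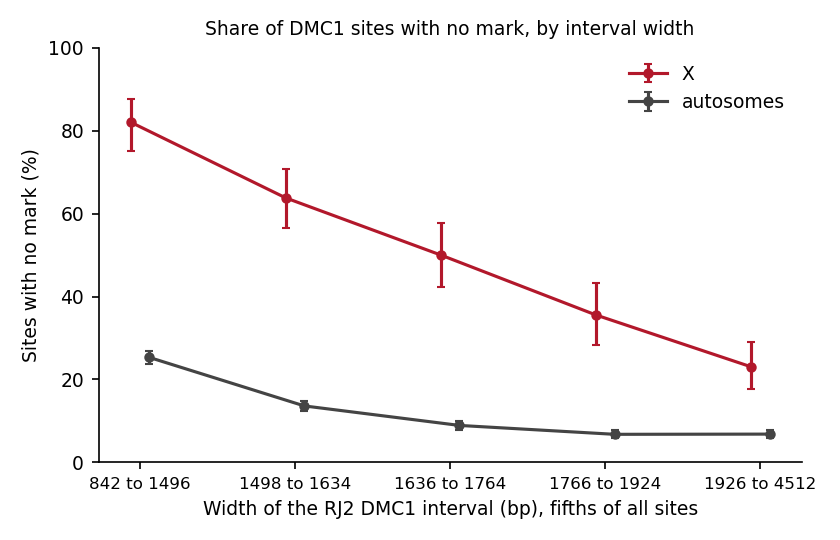
Share of RJ2 DMC1 sites with no mark (vertical axis, %) in 5 groups of interval width (horizontal axis, bp), on the X (red) and on autosomes (grey), with 95% Clopper-Pearson intervals. The share falls to 23.0% on the X and 6.81% on autosomes in the widest group, against 82.1% and 25.3% in the narrowest.

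The wide unmarked sites were those with the fewest motif matches. A match was present in 51.7, 57.0, 54.8, 52.0 and 39.1% of the unmarked sites in the 5 groups from narrow to wide, against 62.1, 65.3, 68.9, 68.8 and 67.2% of the marked sites. The difference of unmarked from marked sites was -10.3 points in the narrowest group (interval -14.2 to -6.42) and -28.1 points in the widest (interval -34.3 to -21.6). The widest unmarked site, an intergenic one of 4232 bp on chromosome 9 (106011092 to 106015323), lacked a match. Its nearest transcription start is that of the collagen gene *Col6a4*, and its nearest mark lay 6867 bp from its centre. A site of 3572 bp on chromosome 6 (77148256 to 77151827), in an intron of *Ctnna2*, which encodes an alpha-catenin, also lacked a match and had its nearest mark 9083 bp away. The widest unmarked site on the X (3386 bp, 67966424 to 67969809, intergenic) also had no match.

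The rule has a sharp limit, but few sites lay near it. From the centre of an unmarked site, the nearest mark lay at a median of 16075 bp (quartiles 6228 and 38561 bp), and at most 472839 bp. It lay from 200 to under 250 bp away, just outside the central 400 bp, in 31 unmarked sites, of a median width of 1848 bp. In 46 marked sites the nearest mark lay from 150 to under 200 bp away, and their median width was 1699 bp. The unmarked sites with the closest marks were an intergenic site on chromosome 10 (43743148 to 43744529) with a mark 200 bp from its centre and a site in an intron of *Hddc2* (chromosome 10, 31043724 to 31045629) with a mark 201 bp away. In all, 150 unmarked sites had a mark elsewhere under the DMC1 interval, which was common H3K4me3 in 78, RJ2-specific H3K4me3 in 65 and a PRDM9 peak in 12. At the other end, 146 unmarked sites lay 100 kb or more from any mark, 62 of them on the X, and 57.5% of the 146 had a PRDM9Cst match.

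Unmarked sites lay in genes somewhat less often than marked sites. The centre was in an annotated gene in 1054 unmarked sites (47.8%, interval 45.7 to 49.9%) and 6894 marked sites (53.1%, interval 52.2 to 53.9%), a difference of -5.32 points (interval -7.57 to -3.07), where all sites had 52.3%. The centre was within 1 kb of a transcription start in 81 unmarked sites (3.67%) and 539 marked sites (4.15%), or 4.08% of all sites, and the difference of -0.48 points had an interval of -1.27 to 0.45. It was in an exon in 125 unmarked sites (5.66%) and 603 marked sites (4.64%), or 4.79% of all sites (difference 1.02 points, interval 0.06 to 2.12). Taken apart, the difference in exons was 0.95 points outside the X (interval -0.10 to 2.17) and -0.57 points on the X (interval -3.84 to 2.72). Both of these intervals include 0. The median GC content of the central 400 bp was 43.2% in unmarked sites (interval 43 to 43.75%) and 43.5% in marked sites (interval 43.25 to 43.75%). Outside the X it was 44% in unmarked sites (interval 43.5 to 44.25%) and 43.5% in marked sites (interval 43.5 to 43.75%). On the X it was 41% in unmarked sites (interval 40 to 41.5%) and 40.8% in marked sites (interval 40.25 to 41.25%). The intervals overlapped in each case, and no order is read from these medians. Unmarked sites exceeded their own flanks by a median of 0.88 points (interval 0.50 to 1.12) and marked sites theirs by 0.62 points (interval 0.50 to 0.75).

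The same position was a DMC1 site in B6 mice more often for unmarked than for marked sites, although the number was small. The central 400 bp overlapped those of a B6 DMC1 site in 35 unmarked sites (1.59%, interval 1.11 to 2.20%) and in 96 marked sites (0.74%, interval 0.60 to 0.90%), a difference of 0.85 points (interval 0.37 to 1.47), where all sites had 0.862%. Outside the X, the shares were 1.14% (20 of 1761) and 0.69% (86 of 12521), a difference of 0.45 points (interval 0.02 to 1.07). On the X they were 3.36% (15 of 446) and 2.14% (10 of 467). That difference of 1.22 points had an interval of -0.97 to 3.55, which includes 0. PRDM9 peaks found in both strains had been taken out of the RJ2 and B6 PRDM9 lists before deposit. A shared position with such a peak therefore counted as unmarked unless another listed mark lay there, which can raise the share of the unmarked sites. The size of this effect was not tested. The number of shared sites depended on the overlap asked for, and with whole intervals 92 unmarked sites (4.17%) and 345 marked sites (2.66%) were shared. Of the 96 marked sites shared by the central 400 bp, most were among the sites with common H3K4me3 only (38 of 250, 15.2%) or with a PRDM9 peak (39 of 6826, 0.57%). Of the 35, 31 had no B6 mark either by the same rule applied to the B6 lists, where 54.9% of all B6 DMC1 sites had none. The common H3K4me3 list is part of the rule in both strains, and PRDM9 peaks found in both strains are in neither PRDM9 list. This count is therefore partly fixed by the choice of sites, and it does not show that PRDM9 was absent in both strains. Their centres in the 2 strains lay a median of 87 bp apart, with 15 pairs within 50 bp.

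The 35 shared sites differed from the other unmarked sites in several respects. Of these, 6 had a PRDM9Cst match (17.1%, interval 6.56 to 33.6%), against 1143 of 2172 other unmarked sites (52.6%), a difference of -35.5 points (interval -44.8 to -19.8). A PRDM9Dom2 match was found in 3 of the 35 (8.57%, interval 1.80 to 23.1%), against 21 of the 96 marked sites shared with B6 (21.9%) and 4.27% of all sites. Their centre was within 1 kb of a transcription start in 8 (22.9%), against 73 of 2172 (3.36%), and in an exon in 7 (20%), against 118 of 2172 (5.43%). Several of these 8 lay in *Mid1*, near the end of the X. Among the 96 marked sites shared with B6, 10 were within 1 kb of a start, and 7 of those 10 had common H3K4me3 only. Of the 35, 15 lay on the X (42.9%), against 431 of 2172 (19.8%). The widest of the 35 was an intergenic site of 3034 bp on chromosome 15 (74915434 to 74918467).

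Of these 15 sites on the X, 9 lay in its last 1 Mb, which holds *Mid1*, a ubiquitin ligase gene known to span the pseudoautosomal boundary in laboratory mice. The last 1 Mb held 21 RJ2 DMC1 sites, and 16 were unmarked (76.2%, interval 52.8 to 91.8%), with 12 of these 16 centred in *Mid1*. All 5 marked sites there were also B6 DMC1 sites. None of the 9 unmarked sites shared with B6 there had a PRDM9Cst match, and neither had any of the 5 marked ones, against 4 of the 7 unmarked sites that were not shared. Compared with the other unmarked sites of the X (218 of 430 with a match, 50.7%), the 16 sites had a match in 4 (25%), a difference of -25.7 points (interval -41.2 to -0.75). The count of B6-shared sites rests in part on this stretch, and without it 26 of 2191 unmarked sites (1.19%) and 91 of 12983 marked sites (0.70%) were shared.

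The widest unmarked site of this stretch, also the widest within 1 kb of a transcription start, measured 2802 bp (X, 166421053 to 166423854) and lay in *Mid1*, 710 bp from the annotated start of *Gm15726*. It was a B6 DMC1 site with no mark in B6 as well. Its central 300 bp (X, 166422304 to 166422603, plus strand of mm9) are printed because they hold no match to the PRDM9Cst matrix, with a best score of 5.14 in the central 400 bp.
Mid1 site: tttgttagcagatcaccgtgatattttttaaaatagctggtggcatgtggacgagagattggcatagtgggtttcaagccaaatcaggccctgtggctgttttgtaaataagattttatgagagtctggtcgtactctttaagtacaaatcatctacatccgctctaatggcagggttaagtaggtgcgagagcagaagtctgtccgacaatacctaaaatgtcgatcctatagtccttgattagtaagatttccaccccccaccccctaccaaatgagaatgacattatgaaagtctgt

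The nearest RJ2 mark lay 226 bp from its centre, just outside the limit of the rule. A second site in *Mid1* (166264627 to 166267062, 2436 bp wide, 246 bp from an annotated start) was shared with B6 and had its nearest mark 46221 bp away. The third widest near a start, on chromosome 2 (94270340 to 94272571, 2232 bp), lay 689 bp from the start of *Api5*, an apoptosis inhibitor gene. It was shared with B6 too and overlapped B6-specific H3K4me3.

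Few unmarked sites overlapped the other B6 lists. B6-specific H3K4me3 lay at 9 unmarked sites (0.41%, interval 0.19 to 0.77%) and at 1 marked site (0.0077%), a difference of 0.40 points (interval 0.20 to 0.77), where all sites had 0.0658%. The rule itself bears on this number, since the H3K4me3 intervals were divided into lists specific to a strain and a common list. The widest of the 9 was a site of 2794 bp on chromosome 13 (120277472 to 120280265), 1679 bp from a start of *3110070M22Rik* and shared with B6 DMC1. A B6 PRDM9 peak lay at 1 unmarked and 4 marked sites (0.0329% of all sites), and the unmarked one was in an intron of *Odz3* (chromosome 8, 49554314 to 49555989), a site with B6-specific H3K4me3 as well. Peaks of mice without SPO11 lay at 2 unmarked and 10 marked sites (0.079% of all sites), of which the wider unmarked one was intergenic on chromosome 2 (122506078 to 122507671). Peaks called in mice without PRDM9 lay at 6 unmarked sites (0.27%, interval 0.10 to 0.59%) and 13 marked sites (0.10%), or 0.125% of all sites (difference 0.17 points, interval 0.01 to 0.49). Taken apart, the difference was 0.12 points outside the X (interval -0.03 to 0.48) and 0.45 points on the X (interval -0.43 to 1.62), and both intervals include 0. The widest of the 6 was in an intron of *Mid1* (X, 166434217 to 166436414). PRDM9 peaks found also in mice without PRDM9, or in both strains, had been taken out of the RJ2 list before deposit, so such a peak does not count as a mark here. How many of the unmarked sites had such a peak was not tested, beyond the 6.

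Of 40 genes of meiotic recombination looked up in the annotation, 37 were found, 10 had an RJ2 DMC1 site in the gene or within 1 kb of it (18 sites), and 5 had an unmarked one (7 sites). Of all RJ2 DMC1 sites, 14.5% were unmarked, and with 18 sites in listed genes nothing is read from the count. *Mei4*, which encodes a protein needed to form breaks, had 2 RJ2 DMC1 sites, and both were unmarked. They lay on chromosome 9 at 81820058 to 81821943 and at 81918426 to 81920203, with each centre in an exon of *Mei4*. The centre of the first lay 28 bp from the middle of its exon (81820705 to 81821240), and that of the second 797 bp from the middle of a longer exon (81919126 to 81921098). Both were B6 DMC1 sites of nearly equal extent (81820111 to 81821944 and 81918433 to 81920100) with no mark in B6, and both lacked a PRDM9Cst match.

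*Gm960*, the gene of the partner of SPO11 known as TOPOVIBL, had 1 unmarked site (chromosome 19, 4695292 to 4696859), and its centre lay 3 bp from the middle of an exon of 139 bp (4696004 to 4696142). It too was a B6 DMC1 site (4695300 to 4696851) without a B6 mark or a PRDM9Cst match, and its centre was at the same base in both strains. Further B6 DMC1 sites without a mark lay in this gene (4648155 to 4649738 and 4653594 to 4654917). These 3 sites of *Mei4* and *Gm960* are therefore among the 7 B6-shared unmarked sites with a centre in an exon. The others, named after their values were seen, were in *Parg*, in *Shroom4*, in *Mid1* and where *Arhgap6* and *Hccs* overlap. Which of these last genes the exon belongs to was not determined. Whether the reads at these exon-centred intervals, or at the exon of *Prdm9* described next, came from breaks in genomic DNA or from cDNA or another copy of the gene was not tested, and they may not be break sites.

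*Prdm9* had 3 RJ2 DMC1 sites, and 2 were unmarked. The first was 3476 bp wide (chromosome 17, 15679107 to 15682582) and covered the whole of the last annotated exon (15680043 to 15682324), which encodes the zinc fingers, with no match. The second (15689120 to 15690467, in an intron) held the match printed above. The site at the start of the gene (15701489 to 15702966) had common H3K4me3 only. None of them was a B6 DMC1 site. The other listed genes with an unmarked site were *Hsf2bp* (1 of 3 sites, chromosome 17, 32120171 to 32122068, in an intron, with a match and a mark 237 bp from the centre), whose protein binds BRCA2, and *Msh4* (1 of 1, chromosome 3, 153549607 to 153550892, in an intron, without a match), which encodes a crossover protein.

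Around *Prdm9*, unmarked sites were more frequent than along most of the chromosome. Between 10 and 20 Mb of chromosome 17, 19 of 56 sites were unmarked (33.9%), and 10 of the 19 had a PRDM9Cst match in the reference sequence. RJ2 carries DNA of other origin around *Prdm9*, while DMC1 and PRDM9 reads were kept with at most 1 mismatch to mm9, and H3K4me3 peaks had to be found also with reads that had no mismatch. Whether that removed marks there was not tested. A stretch from 85 to 90 Mb of the same chromosome also had a high share, with 16 of 50 unmarked. Without chromosome 17, 2133 of 14653 sites were unmarked (14.6%).

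Along the autosomes, chromosome 17 included, unmarked sites were frequent near the centromere, which lies at the low end of the coordinates of mouse autosomes. In the first 5 Mb of autosomes, 60 of 223 sites were unmarked (26.9%, interval 21.2 to 33.2%). The share was 19.8% from 5 to 10 Mb (119 of 600), 15.5% from 10 to 20 Mb (155 of 1001) and 11.4% beyond 20 Mb (1424 of 12449, interval 10.88 to 12.01%). It was higher in the first 5 Mb than beyond 20 Mb in 16 of the 18 autosomes with a site in that stretch. Each autosome had few sites there, from 4 on chromosome 3 to 23 on chromosomes 11 and 19, so single chromosomes are uncertain. Of the 60 unmarked sites there, 28 had a PRDM9Cst match (46.7%), and 4 had less than 50% single-copy words. The X had no RJ2 DMC1 site in its first 5 Mb, so the stretch with the highest autosomal share could not be compared. Further along the X, the share was 53.7% from 5 to 10 Mb (22 of 41, interval 37.4 to 69.3%). It was 39.4% from 10 to 20 Mb (28 of 71, interval 28.0 to 51.7%) and 49.4% beyond 20 Mb (396 of 801, interval 45.9 to 53.0%). At the distal end, 23 of 98 autosomal sites in the last 1 Mb were unmarked (23.5%, interval 15.5 to 33.1%), against 9 of 129 in the Mb before it (6.98%).

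In windows of 10 Mb with at least 20 sites, the share without a mark ranged from 36.2 to 65.2% on the X (median 48.4%) and from 0 to 37.5% on autosomes (median 11.7%). The ranges overlapped between 36.2 and 37.5%. The window with the most unmarked sites was the last of the X, from 160 Mb to its end, with 52 of 80, and 20 of the 52 had a match. On autosomes, the most were found at 30 to 40 Mb of chromosome 5 (20 of 83), and the highest shares at 100 to 110 Mb of chromosome 14 (18 of 48, 37.5%) and at 10 to 20 Mb of chromosome 3 (14 of 38, 36.8%). These windows were picked as extremes after the values were seen, and are given as a description.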

How the data were processed

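ChIP-seq lists for PRDM9, DMC1 and H3K4me3 in mouse testis were used (9 lists). The lists give positions on mm9 and no other value, apart from a score column of the H3K4me3 lists that the authors deposited as 0 in every row. DMC1 reads were aligned by the authors with a modified BWA for single-stranded DNA, PRDM9 reads with Bowtie2 and H3K4me3 reads with Bowtie. For DMC1 and PRDM9, unique reads without duplicates and with at most 1 mismatch were kept. Peaks were called with MACS, and peak numbers for DMC1 and PRDM9 followed the irreproducible discovery rate between replicates. H3K4me3 peaks had to be called in each of 3 sets of reads. The H3K36me3 libraries (10 of 32) were not analysed here.

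Sequence and genes were taken from the NCBIM37 assembly, which is mm9, and its GENCODE annotation. Matrices were grown from the most enriched word of 8 bp in 3 rounds. Shares carry Clopper-Pearson intervals, their differences Newcombe intervals and medians exact binomial intervals, all at 95%. No p-value was computed, since sites and not mice are the units. Unmarked sites, gene lists and tests were chosen with earlier results of these data known. Named sites are the widest, those first listed, of highest score, closest to the limit of the rule, at other B6 lists, near transcription starts or in listed genes. Of the widest sites, 1 is not reported here. Other overlaps, windows, thresholds and sets of sites were tried. The scripts were tested on simulated data. Python 3.11.15, numpy 2.4.6, scipy 1.17.1 and matplotlib 3.10.9 were used.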

Additional observations from a re-analysis of the deposited data

How the results depend on the processing

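Of 38 alternatives, 34 left the result as reported, and 4 moved a count or a median. For a share, as reported means the same direction of its difference, with an interval that included or excluded 0 as before. A count had to stay within a set factor, and a median within its main interval. A reversed direction was looked for in the shares only, and 0 were found. Leaving out the narrowest of the 5 width groups lowered the number of unmarked sites to 1349 of 12156 (11.1%), since that group held many of them. Without X and Y, the median width of unmarked sites was 1549 bp (marked sites 1714 bp). The median GC content was 44% in the central 200 bp (marked sites 44%) and 42.3% in the central 1000 bp (marked sites 42.6%). In the central 400 bp, the intervals of the median GC content of unmarked and marked sites overlapped, also within the X and outside it. With whole intervals, 4.17% of unmarked and 2.66% of marked sites were B6 DMC1 sites. By other overlaps, 2057 to 2333 sites were unmarked. The share with a PRDM9Cst match ran from 25.5% at the strictest threshold to 62.9% at the loosest, against 41.6% and 76.0% of marked sites. Alternatives without sites of repeated sequence, without the last 1 Mb of X and without chromosome 17 were added after seeing the data. No paired analysis was possible because the lists pool the replicates, and for the same reason no replicate could be left out. Sites with a mark too weak to be called cannot be told apart from sites without one.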
